A study of Mus musculus with 6 samples.

Results

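The nuclear genes for the subunits of oxidative phosphorylation were compared between Arid1a knockout and control crypts of the mouse intestine. A probe belonged to the set when its accession gave a gene symbol starting with Nduf and a subunit letter and number, being Sdha, Sdhb, Sdhc or Sdhd, or starting with Uqcr, with Cox4 to Cox8, or with Atp5. Of 105 RefSeq genes with such symbols, 87 were protein coding and 18 were kinds of pseudogene. On the array, 83 of the protein-coding genes were found by accession. A gene was kept when 3 or more of the 6 arrays flagged a probe as well above background, and its brightest probe was used. This left 80 subunit genes among 13496 genes tested, with 36 in complex I, 4 in complex II, 8 in complex III, 15 in complex IV and 17 in complex V. All 80 were above background on all 6 arrays, so none was kept through one group alone. The 3 genes not kept were Ndufa4l2, above background on 1 array, and Cox8b and Cox8c, above background on 0 arrays. Protein-coding genes not found on the array by accession were Cox5b, Ndufb1, Ndufb4b and Ndufb4c. The name pattern itself leaves out some nuclear subunits, such as Ndufab1 of complex I and Cyc1 of complex III.

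The samples were total RNA from isolated crypts of mice of mixed strain, 3 per group, each on its own one-colour Agilent array. Both groups carried the conditional allele Arid1a f/f, and the knockouts also carried Villin-Cre, whose Villin promoter drives the recombinase in the intestinal epithelium. Arid1a codes for a subunit of BAF, a complex that moves nucleosomes along DNA. The labels give no age and do not say whether each sample is its own animal. The p-values therefore reflect only how far these samples differ, and part of that may be technical. Labels contradict each other on a pair of arrays. Control 3 has the title and description of a control but the source name and genotype of a knockout, and knockout 2 has the reverse. Groups here follow the titles, and results are given with and without these arrays.

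Arid1a was measured first as a check of the labels. Its log2 level, which like all levels here is the log2 processed signal minus the 75th percentile of the array, was 3.71, 3.47 and 4.01 in controls 1 to 3 and 2.20, 2.07 and 2.51 in knockouts 1 to 3. It was 2.77-fold lower in the knockout (log2 fold change -1.47, SE 0.21, n = 3 per group, adjusted p = 0.00733 by limma with Benjamini-Hochberg adjustment over all genes), and the arrays titled control 3 and knockout 2 lay with their title groups. Controls 1 and 2 and knockouts 1 and 2 shared a slide and a scan day, and control 3 and knockout 3 shared the other. The 75th percentile of signal was 278.9 to 295.3 on the controls and knockout 1, and 206.4 and 204.5 on knockouts 2 and 3. Crypt markers were present, with 18 of 18 markers of proliferating cells and 11 of 12 of crypt base stem cells kept. Markers of absorptive enterocytes were kept as well (16 of 16), so these counts do not show how pure the crypts were.

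The respiratory chain lies in the inner mitochondrial membrane. Complex I (NADH dehydrogenase) and complex II (succinate dehydrogenase) pass electrons to coenzyme Q, complex III passes them to cytochrome c, and complex IV (cytochrome c oxidase) passes them to oxygen, while complex V (ATP synthase) uses the resulting proton gradient to make ATP. Most subunits are encoded in the nucleus and the rest in mitochondrial DNA. Several complex IV subunits come in a widely expressed form and a form found mainly in muscle, lung or testis. In crypts, stem cells at the base are known for active mitochondrial respiration and their Paneth cell neighbours for glycolysis.

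Upstream sequences were read from RefSeq (GRCm38.p6) as windows from 250 bases before to 50 bases after the start of a gene, and 66 of the 80 subunit genes had such a window. The windows below show the testis form of complex IV subunit 6b, Cox6b2 (chr7:4753045-4753344, minus strand), beside its widely expressed partner, Cox6b1 (chr7:30626065-30626364, minus strand), because their levels parted most among the isoform pairs. Cox6a1 (chr5:115348909-115349208, minus strand) is shown for its match to the NRF1 motif and Ndufs4 (chr13:114388045-114388344, minus strand) for its match to the YY1 motif. Capitals mark the motif matches, and the capitals of Cox6a1 cover overlapping matches on both strands.
Cox6b2: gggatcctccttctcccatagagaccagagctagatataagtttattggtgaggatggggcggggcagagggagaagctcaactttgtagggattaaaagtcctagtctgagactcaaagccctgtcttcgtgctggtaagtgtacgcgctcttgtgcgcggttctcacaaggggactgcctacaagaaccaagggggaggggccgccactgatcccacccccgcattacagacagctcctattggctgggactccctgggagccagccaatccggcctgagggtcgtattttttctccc
Cox6b1: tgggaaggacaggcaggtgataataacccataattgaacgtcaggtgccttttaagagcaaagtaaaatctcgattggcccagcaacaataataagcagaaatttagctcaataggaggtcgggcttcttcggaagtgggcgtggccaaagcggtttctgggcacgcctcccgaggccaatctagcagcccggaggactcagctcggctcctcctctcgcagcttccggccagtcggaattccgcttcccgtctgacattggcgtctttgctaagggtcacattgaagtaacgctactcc
Cox6a1: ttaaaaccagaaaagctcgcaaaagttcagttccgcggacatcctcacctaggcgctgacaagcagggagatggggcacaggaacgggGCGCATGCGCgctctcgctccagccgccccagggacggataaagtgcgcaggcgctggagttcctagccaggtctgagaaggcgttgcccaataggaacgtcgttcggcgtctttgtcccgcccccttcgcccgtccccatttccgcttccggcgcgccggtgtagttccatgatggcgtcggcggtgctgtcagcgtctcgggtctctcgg
Ndufs4: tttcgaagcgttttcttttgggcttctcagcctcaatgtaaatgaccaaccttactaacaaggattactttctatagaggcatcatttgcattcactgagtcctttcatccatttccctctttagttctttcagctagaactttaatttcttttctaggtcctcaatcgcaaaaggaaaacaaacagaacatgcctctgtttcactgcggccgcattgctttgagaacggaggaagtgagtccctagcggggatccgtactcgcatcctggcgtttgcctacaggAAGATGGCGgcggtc

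Exact matches were searched on both strands for NRF1 (GCGCATGCG), ETS or GABP (CCGGAAGT), ERR (TCAAGGTCA) and YY1 (AAGATGGCG), factors known to act on nuclear genes of respiration. NRF1 letters stood in the windows of 8 subunit genes (12.1%), against 3.79% of 10785 tested genes and 1.75% of all 32851 windows. These 8 were Ndufa8, Ndufa11, Uqcrc1, Uqcr11, Cox6a1, Atp5g2, Atp5k and Atp5l. YY1 letters stood in 7 (10.6%), against 3.33% of tested genes and 1.4% of all windows, namely Ndufa9, Ndufc1, Ndufs4, Ndufs6, Ndufs7, Atp5j and Atp5j2. ERR letters stood in Sdhd and Atp5g3 (3.03%, against 0.325% of tested genes and 0.423% of all windows), and ETS letters in 5 genes (7.58%, against 8.47% and 3.89%). At least 1 of the 4 motifs was present in 21 of the 66 genes, or 31.8%, against 15% of tested genes. The windows of Cox6b2 and Cox6b1 held none of these letters, which says nothing about the factors. CpG counts were 10 and 17 in the windows of Cox6b2 and Cox6b1, 32 in that of Cox6a1 and 12 in that of Ndufs4, where the median was 19 over both the subunit and the tested windows.

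Among the 80 subunit genes, 1 rose and 1 fell in the knockout, and both code for tissue-restricted forms of complex IV subunits. Cox6b2, the testis form of subunit 6b, was 3.57-fold higher, and Cox6a2, the heart and skeletal muscle form of subunit 6a, had a log2 fold change of -1.05. Both were dim beside their widely expressed partners. By mean signal they stood at percentiles 46.2 and 22.4 of the genes tested, against 90.9 for Cox6b1 and 100 for Cox6a1. Over all genes tested 982 were higher (7.28%) and 1029 lower (7.62%) at adjusted p under 0.05 by limma with Benjamini-Hochberg adjustment, so the share of subunit genes called lay below the background in both directions. At an unadjusted p under 0.05 there were 7 higher and 1 lower, against 2194 and 2425 of the 13496 genes tested. These shares of the subunit genes were also below the background. The same background applies to the unadjusted counts of complexes and gene lists below from the same fit. Of the 78 not called, 74 had a 95% interval within a 2-fold change, and the others were Ndufs4 (0.14 to 1.0 on the log2 scale), Cox7c (0.00 to 1.04), Cox7a1 (-1.09 to 0.34) and Cox7b2 (-1.46 to 0.83).

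The fold changes of the subunit genes were small and mostly positive relative to the 75th percentile. The median log2 fold change was 0.18 (quartiles 0.09 and 0.28), against -0.01 over all genes tested, and 70 of 80 were positive (87.5%), against 49.2% of all genes. All 3 knockouts lay above all 3 controls for 28 subunit genes (35%), against 19% of all genes, and below for 1 (1.25%), against 20.7%. The sign of this median depended on the scaling. With each array's median in place of the 75th percentile it was -0.07, with 28 of 80 positive, while the median over all genes moved to -0.26. The subunit median minus that of all genes was 0.19 as reported and 0.12 to 0.28 over 20 alternatives, all but the grouping by source name and genotype, where it was -0.04. Without control 3 and knockout 2 the subunit median was 0.11, with 64 of 80 positive and 0 called by limma (1 higher and 1 lower at an unadjusted p under 0.05). Of all genes, 1.31% were called higher and 1.06% lower without these arrays. Leaving out control 1 or control 2 also left 0 called by limma (4 and 7 higher, and 1 lower each, at an unadjusted p under 0.05). Of all genes, 2.61% and 3.24% were then called higher and 2.12% and 2.61% lower. Leaving out knockout 1 gave 3 higher and 1 lower, against 12.6% and 17.2% of all genes, with a subunit median of 0.26. Genes of high signal leaned the same way less strongly, with a median of 0.09 and 59.3% positive among the 3368 brightest genes. All knockouts lay above all controls for 23.2% of these bright genes and below for 13.3%. In whole crypts, fewer cells of a type and less RNA per cell cannot be told apart.

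**Figure D1:**
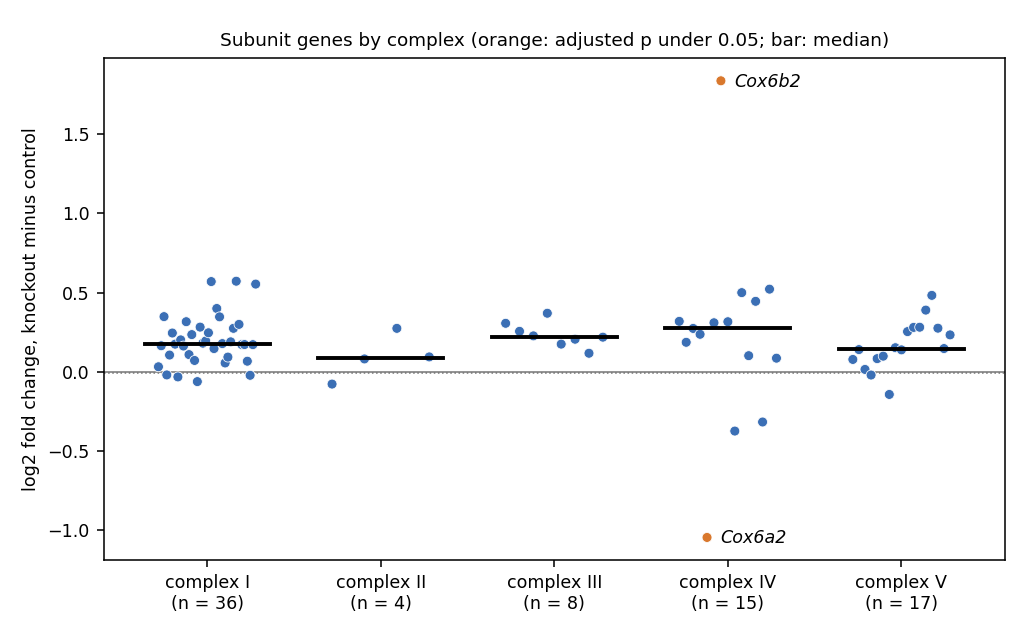
Log2 fold change, knockout minus control, of the 80 subunit genes by complex on the 75th percentile scale, with each complex's median as a bar, a line at 0 and called genes in orange. Most points lie between 0 and 0.5, Cox6b2 stands at 1.84 and Cox6a2 at -1.05, and with the array median as scale the medians of complexes I, II, III and V fall below 0.

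The arrays did not contribute evenly. The mean deviation of the subunit genes from their control mean was 0.07, 0.01 and -0.09 in controls 1 to 3 and 0.04, 0.26 and 0.28 in knockouts 1 to 3. Knockouts 2 and 3 thus stood apart from the controls and knockout 1 did not. Knockouts 2 and 3 were above every control for 61 subunit genes (76.2%, against 30.2% of all genes). Knockout 1 lay within the control range for 36, above it for 29 and below it for 15. It was the lowest knockout for 71 (88.8%, against 42% of all genes and 54.2% of the 3368 brightest). Control 3 was the lowest control for 50 (62.5%, against 30.2% of all genes). The median difference was 0.12 on the first slide and 0.34 on the second, where control 3 and knockout 3 stand alone. On both slides 64 of the 80 subunit genes were positive, against 39.7% of all genes.

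Other measures differed between these arrays too. Knockouts 2 and 3 were the arrays with the lower 75th percentile of signal. Markers of proliferating cells had mean deviations of 0.27, -0.21 and -0.06 in the controls and -0.02, -1.01 and -1.30 in the knockouts, so that knockout 1 lay with the controls. None of these 18 was called (0 higher and 9 lower at an unadjusted p under 0.05 by limma), and 1 was lower with the array median as scale. Markers of crypt base stem cells stood at 0.15, -0.12 and -0.03 in the controls and -0.79, -1.49 and -2.17 in the knockouts, with 4 of 11 lower, or 8 of 11 with the array median as scale. Those of Paneth cells stood at 0.31, 0.18 and -0.49 against -1.74, -2.31 and -4.53. For both lists knockout 1 was below every control as well. Of the 8 Paneth markers 6 were lower, and this count holds Wnt3, which was above background on 3 controls and 0 knockouts and so was kept through the controls, as was Rgmb among the stem cell markers (3 and 1). Over markers above background on all arrays, 5 of 7 and 3 of 10 were lower.

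Markers of absorptive enterocytes stood at -0.11, -0.09 and 0.19 in the controls and -0.55, -0.11 and 0.39 in the knockouts. Knockout 1 was the low array there and knockout 2 lay with the controls, and 1 of 16 was higher and 1 lower (1 and 3 with the array median as scale). Exocrine pancreas markers stood at -1.01, 0.75 and 0.26 in the controls and 0.00, -1.96 and -2.74 in the knockouts, with 8 of the 12 not above background on all arrays. The part of these in the subunit values was not tested.

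**Figure D2:**
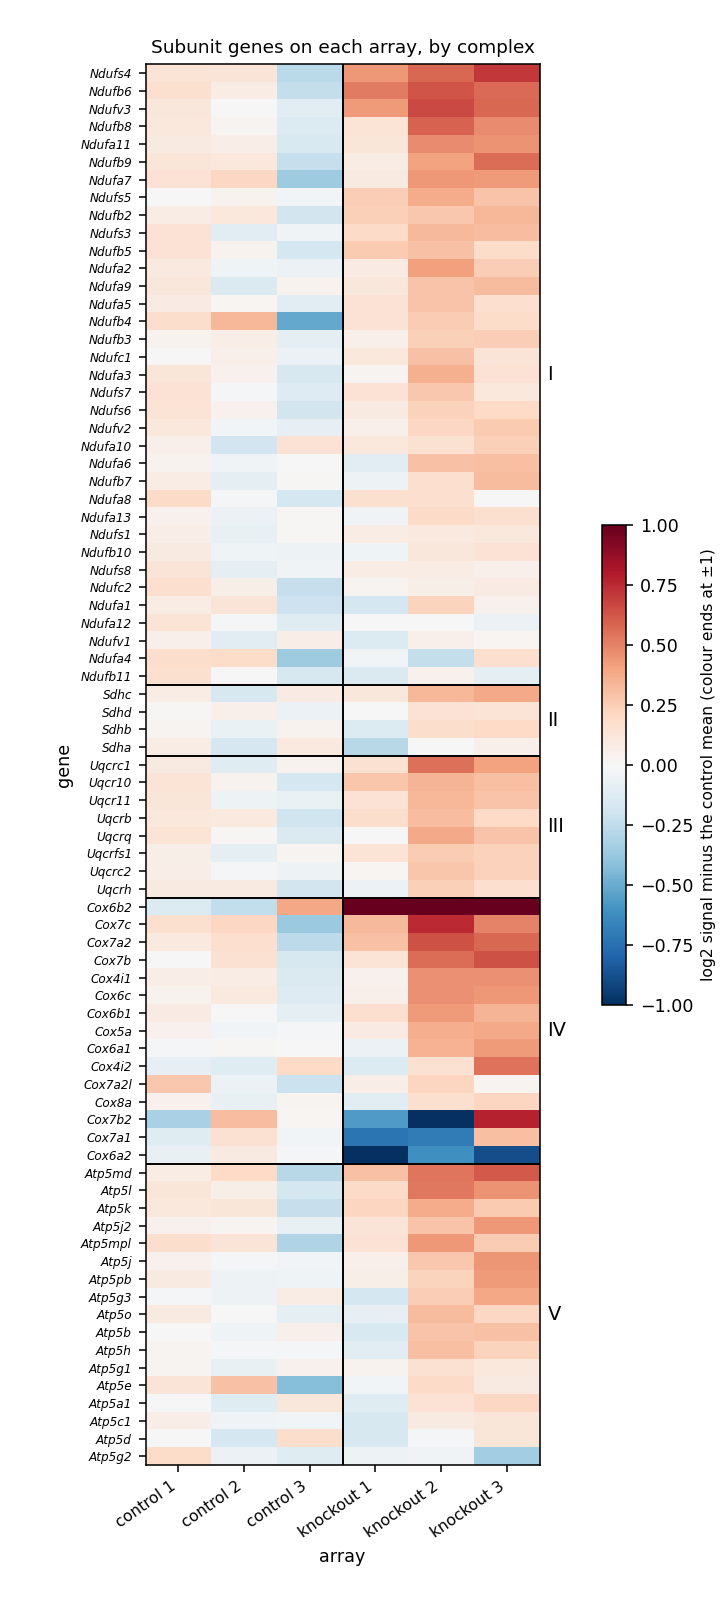
Deviation of the subunit genes (rows, by complex, 1 of the 80 not shown) from their control means on each of the 6 arrays (columns), in log2 units on the 75th percentile scale. Knockouts 2 and 3 are mostly above the control mean, at mean deviations of 0.26 and 0.28, while knockout 1, at 0.04, resembles the controls, and with the array median as scale the median over the genes is -0.07.

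Complex I takes electrons from NADH. None of its 36 subunit genes was called by limma, 3 were higher and 0 lower at an unadjusted p under 0.05, and 32 were positive with a median of 0.18 (10 positive and -0.07 with the array median as scale). For 12 of them (33.3%) all knockouts lay above all controls, against 19% of all genes. Ndufv3, a small subunit beside the flavin-binding site of the matrix arm, had log2 levels of 7.15, 7.03 and 6.92 in controls 1 to 3 and 7.46, 7.70 and 7.61 in knockouts 1 to 3, a log2 fold change of 0.55 (SE 0.15, adjusted p = 0.0552 by limma). Ndufb6, an accessory subunit of the membrane arm, had 5.64, 5.56 and 5.24 against 6.0, 6.11 and 6.04, with a log2 fold change of 0.57 (SE 0.17, adjusted p = 0.0637 by limma). Ndufs4, an accessory subunit of the matrix arm whose loss causes Leigh syndrome, had 5.45, 5.44 and 5.04 against 5.74, 5.88 and 6.02, a log2 fold change of 0.57 (SE 0.18, adjusted p = 0.0772 by limma). In these 3 genes every knockout was above every control, and control 3 was the lowest control each time.

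These 3 were near the threshold and crossed it under some settings. Ndufv3 was called in 5 of 21 alternatives, Ndufb6 in 2 and Ndufs4 in 1. Ndufb9, a membrane-arm subunit, stood at 0.35 (adjusted p = 0.247 by limma), Ndufa5 of the matrix arm 0.20, and Ndufa13, also known as GRIM-19, 0.11, and with the array median as scale the last pair turned to -0.05 and -0.14. Ndufa4, now assigned to complex IV, was at -0.03. For Ndufb8 the probes differed in sign, at 0.40 on the brightest and -0.68 on another.

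Complex II, succinate dehydrogenase, also works in the tricarboxylic acid cycle. None of its 4 genes was called, with 0 at an unadjusted p under 0.05 by limma and a median of 0.09 (-0.16 with the array median as scale). Sdhc, a membrane anchor, had log2 levels of 5.52, 5.28 and 5.52 in controls and 5.55, 5.77 and 5.82 in knockouts, a log2 fold change of 0.27 (SE 0.16, adjusted p = 0.265 by limma), with every knockout above every control. Sdha, the flavoprotein, had 6.85, 6.60 and 6.87 against 6.50, 6.77 and 6.82, and the groups overlapped around a log2 fold change of -0.08. The iron-sulphur subunit Sdhb was at 0.08 and the other anchor, Sdhd, at 0.09, and these turned to -0.17 and -0.15 with the array median as scale.

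Complex III, the cytochrome bc1 complex, was positive for 8 of 8 genes of the name pattern, which leaves out Cyc1. Their median was 0.22 (3 of 8 positive and -0.03 with the array median as scale). None was called, and 0 passed an unadjusted p of 0.05 by limma. In 5 of the 8 (62.5%) all knockouts lay above all controls, against 19% of all genes. Uqcrc1, a core subunit, had log2 levels of 7.46, 7.24 and 7.4 in controls and 7.52, 7.91 and 7.77 in knockouts, a log2 fold change of 0.37 (SE 0.17, adjusted p = 0.17 by limma). Uqcr10, a small membrane subunit, had 7.96, 7.85 and 7.65 against 8.10, 8.16 and 8.12, a log2 fold change of 0.31 (SE 0.15, adjusted p = 0.202 by limma). Neither gene's groups overlapped. The small subunits Uqcr11 and Uqcrq were at 0.26 and 0.22, the hinge protein Uqcrh at 0.12, the Rieske iron-sulphur protein Uqcrfs1 at 0.21 and the other core protein, Uqcrc2, at 0.17. Uqcrq, Uqcrh, Uqcrfs1 and Uqcrc2 turned negative with the array median as scale (-0.03, -0.13, -0.04 and -0.07).

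Complex IV held both calls. Cox6b2 had log2 levels of 0.07, -0.05 and 0.59 in controls 1 to 3 and 1.46, 2.21 and 2.44 in knockouts 1 to 3, a log2 fold change of 1.84 (SE 0.30, n = 3 per group, adjusted p = 0.0129 by limma). Every knockout was above every control, and the difference was 1.83 on the first slide and 1.85 on the second. The call held in 17 of 21 alternatives and was lost, with log2 fold changes of 1.77 and 1.71, without control 1 or without control 2 (adjusted p = 0.0568 and 0.0549 by limma), and without both control 3 and knockout 2 (1.94, adjusted p = 0.0934). Under the grouping by source name and genotype it was 0.75 (adjusted p = 0.999 by limma), where 0 of all genes were called.

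Cox6a2 was lower but stood close to the threshold. Its log2 levels were -0.78, -0.61 and -0.72 in controls and -2.34, -1.32 and -1.59 in knockouts, a log2 fold change of -1.05 (SE 0.27, adjusted p = 0.0482 by limma), with every knockout below every control. The difference was -1.13 on the first slide and -0.87 on the second. The call held in 11 of 21 alternatives. It was lost with slide as a block (adjusted p = 0.0589 by limma), with normexp background correction (0.0549), without control 1 or control 2 (0.135 each), without control 3 (0.121), without knockout 3 (0.0776) and without both control 3 and knockout 2 (0.149). The call was also lost on the first slide alone, without a filter on dim probes and under the grouping by source name and genotype. The log2 fold change of Cox6a2 was -1.29 to -0.65 over the alternatives that kept the groups by title.

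The 10 widely expressed genes placed in complex IV by name were all positive, with a median of 0.31 (7 of 10 and 0.06 with the array median as scale). Of these, 0 were called by limma (2 higher at an unadjusted p under 0.05). Ndufa4, placed in complex I by name, is not among them and was at -0.03. Cox7c, a small membrane subunit, had log2 levels of 6.37, 6.41 and 5.84 in controls and 6.53, 6.95 and 6.70 in knockouts, a log2 fold change of 0.52 (SE 0.22, adjusted p = 0.143 by limma). Cox7a2, the widely expressed subunit 7a, had 7.65, 7.72 and 7.29 against 7.84, 8.18 and 8.12, a log2 fold change of 0.50 (SE 0.19, adjusted p = 0.117 by limma). Control 3 was the lowest array in both, and no knockout fell within the control range. Cox7b was at 0.45 and Cox5a at 0.27. Cox4i1, the regulatory subunit 4, had 8.34, 8.35 and 8.13 against 8.32, 8.73 and 8.73, where knockout 1 lay among the controls, a log2 fold change of 0.32 (SE 0.18, adjusted p = 0.247 by limma). Cox8a, at 0.09, and Cox6a1, at 0.24, turned negative with the array median as scale (-0.16 and -0.01).

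Isoform partners were also set against each other within each array, which removes the scaling of the array. Taken relative to the control mean of the pair, Cox6b2 minus Cox6b1 was -0.22, -0.25 and 0.47 in controls and 1.09, 1.59 and 1.90 in knockouts, a difference of 1.53. Cox6a2 minus Cox6a1 was -0.06, 0.08 and -0.02 against -1.57, -0.96 and -1.31, a difference of -1.28. Cox7a1, the muscle form of subunit 7a, minus Cox7a2 was -0.22, -0.02 and 0.23 against -1.02, -1.33 and -0.27, a difference of -0.87. In these 3 pairs the groups did not overlap, and the exact two-sided permutation test over samples gave p = 0.1 for each (0.167 adjusted over the 5 pairs), the smallest that 3 against 3 allows. Cox4i2, the lung form, minus Cox4i1 differed by -0.13 (exact permutation p = 0.6), and Cox7b2, the testis form, minus Cox7b by -0.76 (exact permutation p = 0.2), and both overlapped.

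Taken singly, none of the widely expressed partners was called, and Cox6b2 and Cox6a2 were the called restricted forms. Cox6b1 had log2 levels of 5.29, 5.21 and 5.12 in controls and 5.38, 5.63 and 5.54 in knockouts, a log2 fold change of 0.31 (SE 0.15, adjusted p = 0.193 by limma). Cox6a1 had 9.61, 9.64 and 9.63 against 9.57, 9.97 and 10.05 (0.24, SE 0.18, adjusted p = 0.374 by limma). Cox7a1 had 6.44, 6.71 and 6.53 against 5.83, 5.86 and 6.86, so that knockout 3 was above every control and the other knockouts below (-0.37, SE 0.30, adjusted p = 0.404 by limma). Though grouped with the restricted forms, Cox7a1 was bright here. It stood at percentile 94.9 of mean signal, and the other restricted forms at 17.5 to 46.2. Cox7b2 had -1.95, -1.32 and -1.61 against -2.19, -2.78 and -0.86, with knockout 3 again highest (-0.32, SE 0.48, adjusted p = 0.667 by limma). Cox4i2 had -0.58, -0.62 and -0.30 against -0.64, -0.35 and 0.04 (0.19). Among 14 markers of fibroblasts, muscle and endothelium, 4 were kept, with mean deviations of -0.12, -0.02 and 0.14 in controls and 0.22, 0.32 and 0.94 in knockouts. The muscle markers Myh11 and Des were not well above background on at least 3 arrays, and Acta2 was higher (0.91, adjusted p = 0.0479 by limma), a call that is lost with the array median as scale, where 0 of the 4 were higher. The part of such cells in these isoforms was not tested.

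**Figure D3:**
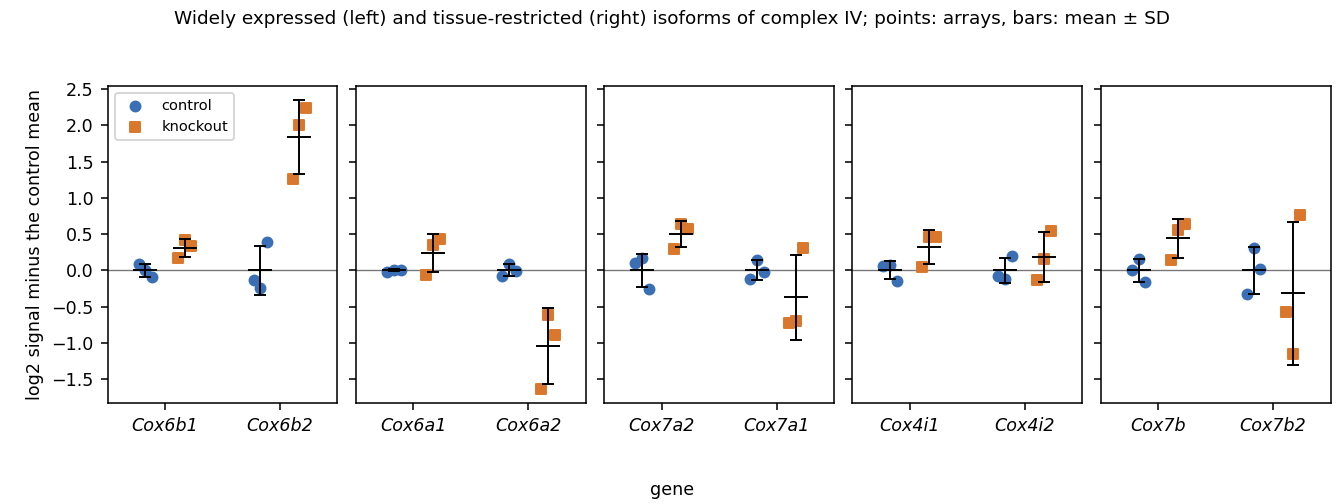
Log2 signal minus each gene's control mean, on the 75th percentile scale, for the 5 tissue-restricted complex IV isoforms and their widely expressed partners, with 1 point per array and bars for mean and SD (n = 3 per group). Cox6b2 is higher and Cox6a2 lower on every knockout, while the groups of Cox4i2 and Cox7b2 overlap and Cox7a1 is above its control mean on knockout 3 alone. With the array median as scale, Cox6a1 turns from 0.24 to -0.01 and Cox4i2 from 0.19 to -0.06.

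Complex V, ATP synthase, had 15 of 17 genes positive, a median of 0.15 (-0.10 with the array median as scale) and 0 called, with 1 higher at an unadjusted p under 0.05 by limma. The 5 genes of the catalytic F1 head (Atp5a1, Atp5b, Atp5c1, Atp5d and Atp5e) had a median of 0.08, and the 3 genes of the proton-carrying c ring (Atp5g1, Atp5g2 and Atp5g3) 0.10. In neither group did all knockouts lie above all controls for any gene. The other 9 code for the stalk and small membrane subunits. All were positive, with a median of 0.28 (6 of 9 and 0.03 with the array median as scale). In 5 of these 9 all knockouts lay above all controls, against 19% of all genes. The difference between these groups of subunits was not tested.

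Atp5md, a small membrane subunit also known as DAPIT, had log2 levels of 7.17, 7.29 and 6.81 in controls and 7.39, 7.63 and 7.71 in knockouts, a log2 fold change of 0.48 (SE 0.19, adjusted p = 0.128 by limma). Atp5l, subunit g, had 8.29, 8.23 and 7.99 against 8.36, 8.70 and 8.62, a log2 fold change of 0.39 (SE 0.17, adjusted p = 0.158 by limma). In both genes control 3 was lowest and every knockout was above every control. Atp5k, subunit e, was at 0.28, and the stalk subunit Atp5o at 0.15. In the F1 head, Atp5a1 was at 0.08 and Atp5b at 0.14, and for Atp5b the other probes stood at -0.02 and 0.02. With the array median as scale Atp5o, Atp5a1 and Atp5b turned negative (-0.10, -0.17 and -0.11), and 0 of the 5 F1 genes were positive.

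**Figure D4:**
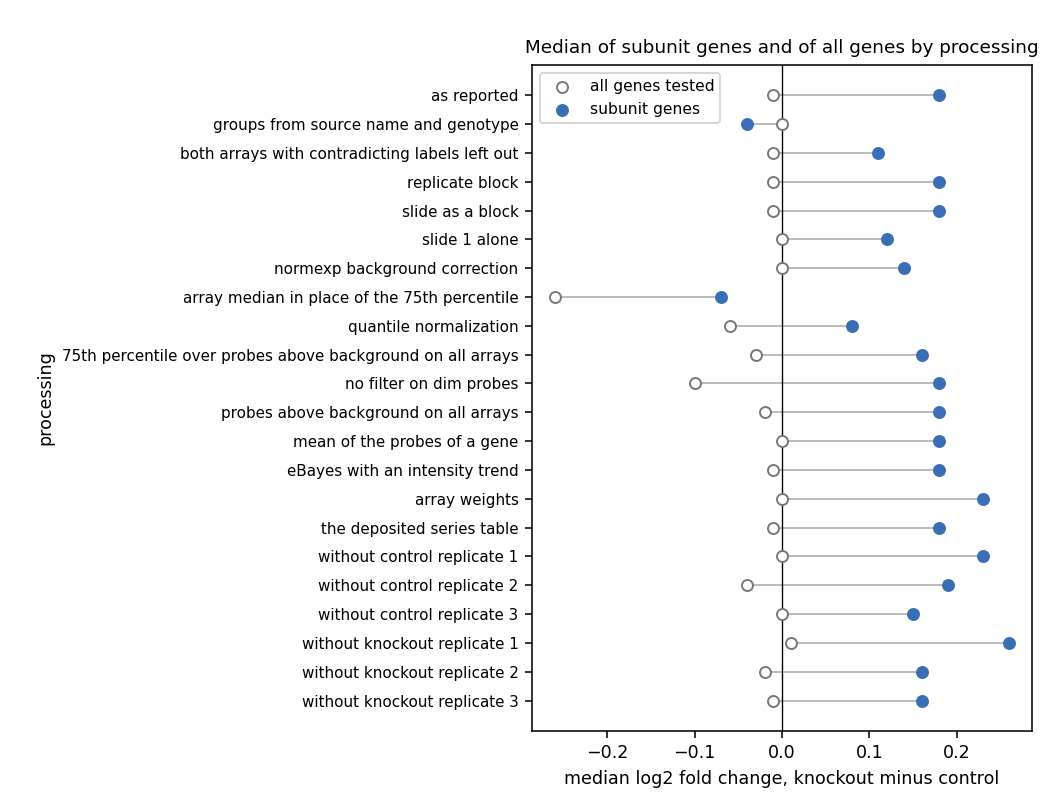
Median log2 fold change over the 80 subunit genes and over all genes tested under each processing alternative. The subunit median was 0.18 as reported and -0.07 with the array median as scale, and it lay above that of all genes under every alternative shown except the grouping by source name and genotype.

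Outside the name pattern, 232 other genes of energy metabolism were measured. Of these, 16 were of glycolysis and lactate and the rest came from lists of mitochondrial genes. A list of 9 held nuclear subunits and carriers that the pattern leaves out, with 8 positive and a median of 0.22 (4 and -0.03 with the array median as scale). It includes Ndufab1 of complex I (0.06) and Cyc1 of complex III (0.14), which are not counted in the complexes above. Of the 232, 9 were called higher (3.88%), 4 of them in the glycolysis and lactate list, and 2 lower (0.862%). Both shares lay below the background. All of the 232 but Ldhb, described below, were above background on all arrays, which leaves 8 of 231 higher. Cycs, cytochrome c, which carries electrons from complex III to complex IV, had log2 levels of 7.95, 7.92 and 7.97 in controls and 8.39, 8.71 and 8.83 in knockouts, and rose by 0.69 (SE 0.17, adjusted p = 0.0396 by limma). Slc25a4, an adenine nucleotide carrier that exports ATP from mitochondria, had 4.89, 4.76 and 5.53 against 6.14, 6.36 and 6.60, and rose by 1.31 (SE 0.25, adjusted p = 0.0199 by limma). In both genes every knockout was above every control. Their call, like that of the others below, depended on the arrays used. With any 1 array left out other than knockout 1, 3 or 4 of the 232 were higher and 0 or 1 lower. Over all genes, 2.61% to 4.91% were higher and 2.12% to 5.85% lower in these fits. Without knockout 1, 16 of the 232 were higher and 22 lower, against 12.6% and 17.2% of all genes. Without both control 3 and knockout 2 there were 0 and 0, against 1.31% and 1.06%. With the array median as scale 4 were higher, Slc25a4, Hk1, Hk2 and Ldhb, so that Cycs and the other 4 genes named below as higher lost their calls. On that scale 3 were lower, Ppargc1a, Ucp2 and Sdhaf1. Of all genes, 4.15% were then higher and 10.3% lower.

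The assembly factors of complex IV, which insert metal and join subunits, had 2 of 24 higher with a median of 0.06. Cox17, a copper chaperone, rose by 0.71 (SE 0.15, adjusted p = 0.0291 by limma) and Cox16 by 0.93 (SE 0.19, adjusted p = 0.024 by limma). Complex I assembly factors had a median of -0.24, with 12 of 16 negative and 1 higher, Tmem126b (0.74, SE 0.17, adjusted p = 0.033 by limma). Ndufaf4, of the same group, was at -0.55 (adjusted p = 0.0555). The factors for complexes II and III had 0 of 9 called and a median of -0.23, led by Sdhaf1 at -0.83 (adjusted p = 0.0652 by limma). Sdhaf1 was called lower with the array median as scale, where the median was -0.48. As reported, 0 of 4 were called for complex V. Coenzyme Q synthesis had 0 of 11 called, with Coq8b at 0.78 and Coq8a at -0.86.

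Glycolysis and lactate genes were positive in 16 of 16, with a median of 0.55 and 4 higher (12 of 16, 0.30 and 3 with the array median as scale). Hk2, a hexokinase at the entry of glycolysis, had log2 levels of 0.55, 1.17 and 0.86 in controls and 3.1, 2.78 and 2.47 in knockouts, and rose by 1.92 (SE 0.24, adjusted p = 0.00515 by limma). Hk1 rose by 1.12 (SE 0.16, adjusted p = 0.00863 by limma), and Aldoa, an aldolase, by 0.86 (SE 0.19, adjusted p = 0.0297 by limma). Ldhb, a lactate dehydrogenase subunit, was above background on 1 of 3 controls and 3 of 3 knockouts and so was kept through the knockouts. Its fitted log2 difference of 3.04 (SE 0.46, adjusted p = 0.00955 by limma) rests on controls that were mostly not above background. Without it, 15 of 15 glycolysis genes were positive, with a median of 0.51 and 3 higher, and mean deviations of 0.47, 0.55 and 0.72 in the knockouts. With it, the glycolysis list was above every control in knockout 1 as well, with mean deviations of 0.58, 0.70 and 0.92 in the knockouts and -0.06, -0.14 and 0.20 in the controls; the difference between the lists was not tested. Tricarboxylic acid cycle genes had 0 of 17 called, with 0 higher and 2 lower at an unadjusted p under 0.05 by limma, and a median of 0.02 with 11 positive. These became -0.23 and 1 with the array median as scale.

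**Figure D5:**
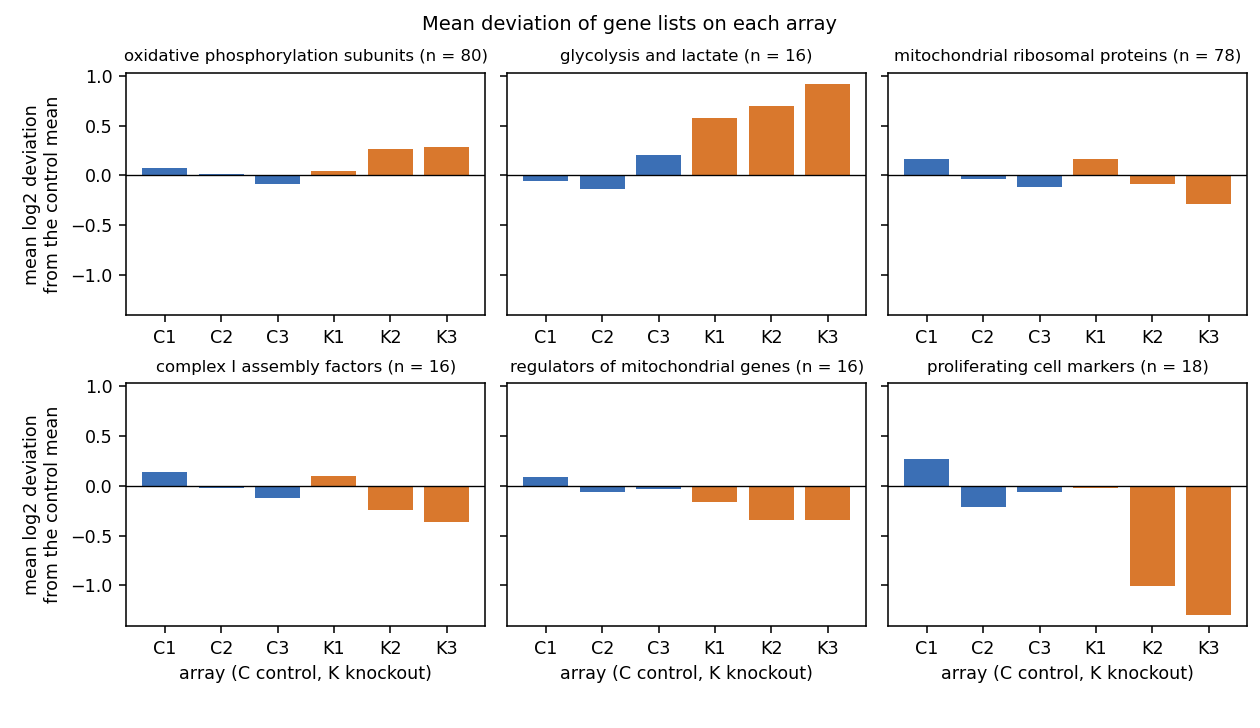
Mean deviation from the control mean, per array and in log2 units on the 75th percentile scale, of the 80 subunit genes and of other gene lists. The subunit genes reach 0.28 and glycolysis genes, Ldhb included, 0.92 in knockout 3, where mitochondrial ribosomal proteins are at -0.29 and proliferating cell markers at -1.30. With the array median as scale, the subunit median is -0.07 and that of all genes -0.26.

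Lists of genes that build or regulate mitochondria had medians near or below 0, and 1 of their genes was called. Mitochondrial ribosomal proteins had 0 of 78 called (2 higher and 6 lower at an unadjusted p under 0.05 by limma), a median of -0.07 and mean deviations of 0.16, -0.09 and -0.29 in the knockouts. Import genes had 0 of 23 called, a median of 0.04 and mean deviations of 0.19, -0.10 and -0.29. Of 16 regulators of mitochondrial gene expression 1 fell, 0 rose and 11 were negative, with a median of -0.25. With the array median as scale the medians of these 3 lists were -0.32, -0.21 and -0.50, against -0.26 over all genes. Ppargc1a, the coactivator PGC-1alpha of mitochondrial biogenesis, had log2 levels of 2.83, 2.92 and 2.47 in controls and 1.71, 0.40 and 1.57 in knockouts, and fell by 1.51 (SE 0.36, adjusted p = 0.0382 by limma). Ucp2, an inner membrane carrier, fell by 0.61 (SE 0.16, adjusted p = 0.0452 by limma). Of the factors whose motifs were searched, Nrf1 was at -0.46, Gabpa at -0.36, Esrra at -0.25 and Yy1 at 0.15, and none was called. For the 13 subunits encoded in mitochondrial DNA, no probe was matched by accession, and they were not analysed here.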

How the data were processed

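Cy3-labelled RNA of 3 control and 3 knockout crypt samples was hybridised to one-colour Agilent arrays, per the labels. Spot intensity is the processed signal of Agilent Feature Extraction (12.0.3.1 per the file headers, 11.5.1.1 per the submitters' processing notes), from which background had been subtracted without scaling between arrays, per the file headers. Log2 values in the deposited series table, used as an alternative, matched the scanner values on the 75th percentile scale after centring each probe on its median. Their medians by array were 0.196, 0.0606 and -0.322 (controls 1 to 3) and -0.0717, 0.214 and -0.183 (knockouts 1 to 3).

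Control spots and those flagged as outliers were dropped, spots of a probe averaged, and each array's 75th percentile subtracted from the log2 signal. No spot was saturated (0 on every array). Probes were named by unversioned accession through RefSeq (GRCm38.p6), which gave 33767 of 56605 a symbol. Among 26746 kept probes 19392 had one, and the brightest probe stood for a gene. The array design uses another build, so coordinates are given for the RefSeq windows alone, none for probes. limma 3.58.1 (R 4.3.3) was fitted to all 13496 genes by group, with two-sided tests and Benjamini-Hochberg adjustment, called at adjusted p under 0.05. The fit was tested on simulated data. The number of arrays limits the precision. Deviations from the group means correlated at 0.25, 0.08 and 0.35 between a control and a knockout of the same replicate number. Between different numbers they correlated at -0.28 to 0.02. The design gives no pairs, so none were fitted, and a block for replicate number was run as an alternative.

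The values of 1 subunit gene are not reported singly here, and it is counted among the 80. The members and gene lists were chosen with earlier results of these data known. Named genes are every member called, the 3 with the largest change and the 3 brightest of each complex, the isoform pairs, and up to 4 genes of smallest p from each other list. Other members were chosen after their values were seen, to show a subunit's role or probes of opposite sign, and the motif factors because their motifs were searched. Alternatives covered grouping, blocks, background correction, scaling, filter, probe choice, weights, the deposited table and leaving out each array.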

Additional observations from a re-analysis of the deposited data

How the results depend on the processing

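The median log2 fold change over subunit genes kept its sign in 19 of 21 alternatives, and those of single complexes changed with scaling. With the array median it was -0.07, and by complex -0.07 (I), -0.16 (II), -0.03 (III), 0.03 (IV) and -0.10 (V), and 4 other energy genes were higher. Single genes turned to -0.17 (Atp5a1, Sdhb), -0.11 (Atp5b), -0.10 (Atp5o), -0.06 (Cox4i2), -0.01 (Cox6a1), -0.16 (Cox8a), -0.14 (Ndufa13), -0.05 (Ndufa5), -0.15 (Sdhd), -0.13 (Uqcrh) and -0.03 (Uqcrq). Uqcrfs1 and Uqcrc2 turned to -0.04 and -0.07 on the same scale. Of all genes called, 28.7% were then higher, against 48.8% as reported. Quantile normalization gave 0.06 (I), -0.04 (II) and 0.11 (III), with -0.05 (Atp5a1), -0.01 (Atp5b, Cox8a), -0.04 (Ndufa13), -0.06 (Sdhb) and -0.03 (Sdhd). Under the grouping by source name and genotype, 0 members and 0 other energy genes were called in either direction, with medians of -0.04 (all), -0.05 (I), -0.01 (II), -0.04 (III), -0.03 (IV) and -0.06 (V). Single genes turned there to -0.01 (Atp5b, Ndufb6, Sdhb, Uqcr11), -0.12 (Atp5k), -0.08 (Atp5l, Cox4i1, Ndufb9), -0.06 (Atp5md, Ndufa5), -0.13 (Atp5o, Uqcrq), -0.03 (Cox6b1, Cox7b), 0.07 (Cox7a1), -0.10 (Cox7a2), 0.46 (Cox7b2), -0.22 (Cox7c), 0.00 (Cox8a), -0.02 (Ndufa13), -0.04 (Sdhd, Uqcr10) and -0.16 (Uqcrh). Without both contradicting arrays, 0 members and 0 other genes were called, and Cox7b2 was at 0.11 and Uqcrh at -0.04. On the first slide alone Uqcrh was at 0.00, 0 members were lower, and 3 other genes were higher and 0 lower. Of all genes, 2.36% were higher and 2.74% lower on that slide, and 1.31% and 1.06% without both contradicting arrays.

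Members called higher numbered 2 with normexp correction or with probes above background on all arrays, 3 with an intensity trend and 8 with array weights, and those called lower 0 with slide as a block, normexp or no filter. Other energy genes called higher numbered 3 without a filter, 15 with the trend and 20 with weights. Those called lower numbered 4 with slide as a block or the trend, 7 with normexp, 0 without a filter and 26 with weights. Of all genes, 8.1% were called higher with normexp and 7.66% with probes above background on all arrays. This share was 8.52% with the trend, 16.4% with weights and 1.56% without a filter. Called lower were 9.38% of all genes with slide as a block, 8.65% with normexp and 8.5% with the trend. With weights 18.9% of all genes were lower, and without a filter 1.41%. The block for replicate number moved the lower count from 2 to 8, and no call of a member changed. All genes called with it were 1329 higher and 1402 lower. Each sample correlated best with its own number, though by little for number 2 (0.08, against -0.1 to 0.02 with other numbers). The highest, 0.35, was between control 3 and knockout 3, which alone shared the second slide, so number and slide cannot be told apart there. The design gives no pairs. Leaving out each array gave 0 to 3 members higher and 0 to 1 lower, 3 to 16 other genes higher and 0 to 22 lower, a complex V median of 0.07 to 0.29, and values of -0.21 to 0.07 for Ndufa4, -0.16 to 0.02 for Sdha and -0.86 to 0.10 for Cox7b2. With 1 array left out, 2.61% to 12.6% of all genes were called higher and 2.12% to 17.2% lower. The cause of these shifts was not tested.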
